A study of Mus musculus with 8 samples.

Results

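Genes of mitosis and cytokinesis, the machinery that condenses, aligns and separates chromosomes and then divides the cell, were followed in embryonic mouse lung mesenchyme. The set was a list of 50 named genes, and every probe set that the array's annotation gave to one of them was taken. It found 49 genes of 18193 on the array with a gene of their own, through 112 probe sets. Ccnb1, the B-type cyclin most used as a mitosis marker, had no probe set under its symbol and was not measured here. All 49 genes passed the filter on low signals, and 105 of their probe sets did.

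Mesenchyme, the connective tissue that surrounds the branching airway, was microdissected from lungs of CD1 mouse embryos at a stage that the labels give as e11.5 - e12.5 for every array, and its RNA was hybridised to 8 Affymetrix arrays, 2 in each of 4 groups. Tip (from around the growing branch ends) and stalk (from around the airway behind them) were lysed right after dissection. The other 2 groups were stalk mesenchyme kept for 12 h on tissue culture plastic, one in control growth medium and one in that medium with 400 ng/ml Wnt1, a secreted signalling protein. The labels name no allele or transgene, and the cultures started from dissected tissue rather than a cell line. No label says whether the 2 arrays of a group came from separate litters or dissections, and the spread behind every p-value here is that between arrays, possibly a technical one. The labelled tissue was checked against its markers, and all 11 lung mesenchyme genes examined, among them Tbx4, Tbx5 and Foxf1, lay above the highest array median, a signal of 299, on every tip and stalk array.

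A dividing cell makes most of these proteins only late in its cycle. Cyclins bound to the kinase Cdk1 start mitosis, Plk1 and the Aurora kinases build the spindle, kinetochores couple chromosomes to it, and the checkpoint holds the cell until every chromosome is attached. The anaphase promoting complex with Cdc20 then marks securin and the cyclins for destruction, separase releases the sister chromatids, and the midzone proteins and the contractile ring split the cell. The genes are transcribed together in late G2 and mitosis, and their RNA is widely read as a sign of dividing cells. In the branching lung the mesenchyme divides as the airway grows, and it gives rise to airway smooth muscle along the stalk.

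The promoters are shown first, because the members share transcription at 1 stage of the cycle. Late cell cycle promoters are known for the cell cycle homology element, searched here as TTTGAA, and for the CCAAT box, searched as CCAAT, each on both strands (the reverse complements are TTCAAA and ATTGG, and neighbouring matches can share an end base). RefSeq windows of 250 bases before to 50 bases after a transcript start (build GRCm38.p6) were matched by symbol for 43 of the 50 genes, in 45 windows. Below are the 150 bases that end at the start, written 5′ to 3′ on the gene's own strand, with matches to either motif in capitals. They were picked to set beside the signals described further on. Top2a, Cdk1 and Ube2c fell in control culture, Cdc20 and Kif22 have probe sets that disagree in direction, and Bub1 fell without holding the homology element in these bases.

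Top2a, chr11:99024190-99024339, minus strand: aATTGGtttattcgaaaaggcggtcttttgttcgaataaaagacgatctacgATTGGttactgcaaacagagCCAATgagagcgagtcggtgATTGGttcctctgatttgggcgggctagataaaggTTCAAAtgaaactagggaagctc
Cdk1, chr10:69352913-69353062, minus strand: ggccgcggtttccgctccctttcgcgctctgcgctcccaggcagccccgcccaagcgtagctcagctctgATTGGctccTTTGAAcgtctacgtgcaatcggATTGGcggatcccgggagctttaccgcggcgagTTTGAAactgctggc
Ube2c, chr2:164769779-164769928, plus strand: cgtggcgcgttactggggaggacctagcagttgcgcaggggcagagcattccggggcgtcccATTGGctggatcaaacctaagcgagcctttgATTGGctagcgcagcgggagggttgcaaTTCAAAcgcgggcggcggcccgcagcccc
Cdc20, chr4:118437344-118437493, minus strand: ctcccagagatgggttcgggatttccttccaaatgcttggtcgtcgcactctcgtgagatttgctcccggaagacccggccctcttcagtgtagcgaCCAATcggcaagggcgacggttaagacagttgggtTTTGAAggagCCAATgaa
Kif22, chr7:127042421-127042570, minus strand: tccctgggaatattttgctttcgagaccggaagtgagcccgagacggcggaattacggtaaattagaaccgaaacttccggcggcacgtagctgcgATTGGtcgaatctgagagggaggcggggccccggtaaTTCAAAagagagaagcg
Bub1, chr2:127831860-127832009, minus strand: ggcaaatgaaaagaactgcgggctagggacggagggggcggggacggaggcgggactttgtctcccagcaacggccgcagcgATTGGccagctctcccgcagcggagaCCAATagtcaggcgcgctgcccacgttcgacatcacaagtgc

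The element was present in 32 of the 43 member genes (74.4%) and in 20.2% of 27025 genes in the table. It lay close to the start. In 31 of 45 member windows (68.9%) a match began within 50 bases of it, and this was so in 4.94% of all 32851 windows. CCAAT was found in 31 of 43 member genes (72.1%) and in 41.1% of all genes, and both motifs stood together in 27 of 43 (62.8%) against 7.97%. The homology element was in 12 of the 17 matched members that fell in control culture (below) and in 20 of the 25 other measured ones. A match is a string of letters and not a measured site.

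**Figure D1:**
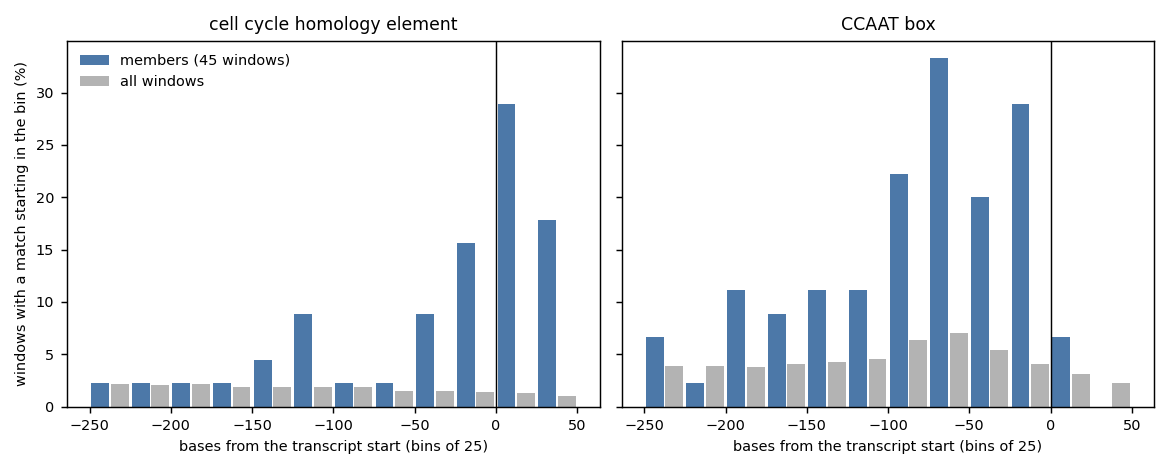
Share of promoter windows (vertical axis, percent) with a match to the cell cycle homology element (left) or the CCAAT box (right) that starts in each bin of 25 bases, by distance from the transcript start (horizontal axis, bases), for the 45 member windows (blue) and all 32851 windows (grey). The member bars for the homology element are tallest next to the start, within the 50 bases where 68.9% of member windows hold a match.

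Tip and stalk mesenchyme carried most of the mitotic genes at overlapping signals. No member passed the threshold (limma, adjusted p under 0.05), and neither did any other of the 16112 genes tested, so the background was 0.0% in each direction. The difference was taken between means of log2(signal + 44), here and below, with both pairs of arrays in 1 fit of all 8. Its median over the 49 members was -0.04 (tip minus stalk), beside 0.01 for all genes, with 20 members above 0 and 29 below. At an unadjusted p under 0.05 there was 1 member, Nuf2, and 96 genes in all. The signals of the 2 groups did not overlap, higher in tip, in 4 members (background 18.2%) and, lower in tip, in 7 (background 16.3%).

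Nuf2, a subunit of the Ndc80 complex that grips the microtubule at the kinetochore, had the largest difference upward. Its signals were 967 and 1196 in tip and 635 and 530 in stalk, a log2 difference of 0.84 ± 0.37 (SE). Both tip arrays lay above both stalk arrays. Kif20b, a kinesin of cytokinesis, came next at 0.48 ± 0.46, but its stalk arrays, at 1902 and 692, bracketed the tip signals of 1633 and 1621. The largest difference downward was that of Mki67, which coats mitotic chromosomes and is the usual proliferation marker, with 4407 and 4802 in tip and 6997 and 6793 in stalk (-0.58 ± 0.47). Cenpf, a kinetochore protein, followed with 1613 and 1732 in tip and 2522 and 2422 in stalk (-0.55 ± 0.35). In both, tip lay below stalk on every array, and the adjusted p of each of these 4 genes rounded to 1. The standard error comes from all 8 arrays and so carries the spread of the culture arrays too. For Mki67 the SD was 279 in tip and 144 in stalk but 2449 in control culture. With only the tip and stalk arrays fitted, 0 members passed as well.

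The other genes given in every comparison were close together. Top2a, the topoisomerase that untangles chromosomes, was at -0.05 ± 0.42, the mitotic kinase Cdk1 at 0.17 ± 0.37 and Plk1 at -0.09 ± 0.50. Aurkb, the Aurora kinase of the chromosomal passenger complex, was at -0.12 ± 0.34, and Birc5, its survivin subunit, at -0.20 ± 0.34. Cdc20, the activator of the anaphase promoting complex, was at -0.08 ± 0.52. Each of these 6 differences was smaller than its standard error, and the tip and stalk arrays overlapped in all 6 genes.

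**Figure D2:**
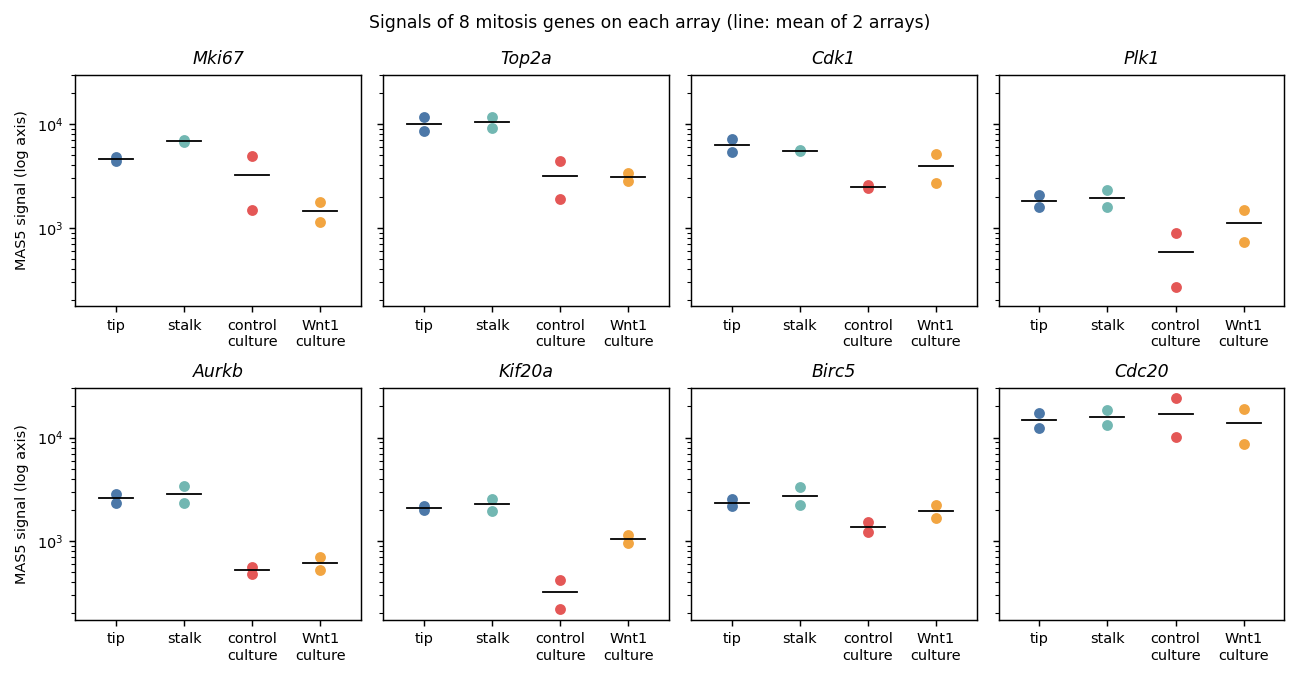
MAS5 signal (vertical axes, log scale) of 8 mitosis genes on each of the 8 arrays, with the mean of the 2 arrays of a group as a line. Tip and stalk points overlap in all genes shown but Mki67, where tip lies below stalk. The culture points of Kif20a, Aurkb and Top2a lie below both, and those of Cdc20 span the uncultured range.

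After 12 h in control medium, stalk mesenchyme had lower signals for genes of every step of mitosis. Of the 49 members 22 fell and 2 rose, where 9.11% of all genes tested fell and 16.8% rose. In 44 members the difference (control culture minus stalk) was below 0. The median was -1.13, and for all genes it was 0.43. The members are brighter than most genes tested. With a stricter filter (above 158 on at least 4 arrays) 11265 genes were left, with a median of -0.05, of which 1471 fell and 1738 rose. Of the 48 members left, 22 fell and 1 rose, with a median of -1.14. Both control culture arrays lay below both stalk arrays in 41 members (background 25.3%) and above them in 2 (background 45.9%). In dissected pieces, fewer cells of a type and less RNA per cell cannot be told apart. The calls depended on both stalk arrays, and with 1 stalk array left most were lost among the members and over all genes alike. The median was -1.18 without stalk replicate 1 and -1.10 without stalk replicate 2. Without control replicate 1 it was -0.79.

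The same was seen array by array. The median member signal was 2324 and 2602 in tip, 2352 and 2928 in stalk, 697 and 1213 in control culture, and 884 and 1240 in Wnt1 culture. All 4 culture arrays were below all 4 uncultured ones. Ranked among the 16112 genes of the same array, the median member stood at the 86.9th to 89.1st percentile on the uncultured arrays. In culture it stood at 67.7 and 80.5 in control medium and at 74.6 and 81.1 with Wnt1. From stalk to control culture 46 members moved down in rank and 3 up, with a median shift of -11.5 percentile points. A rank does not depend on how an array was scaled, though it does depend on the other genes of the array.

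**Figure D3:**
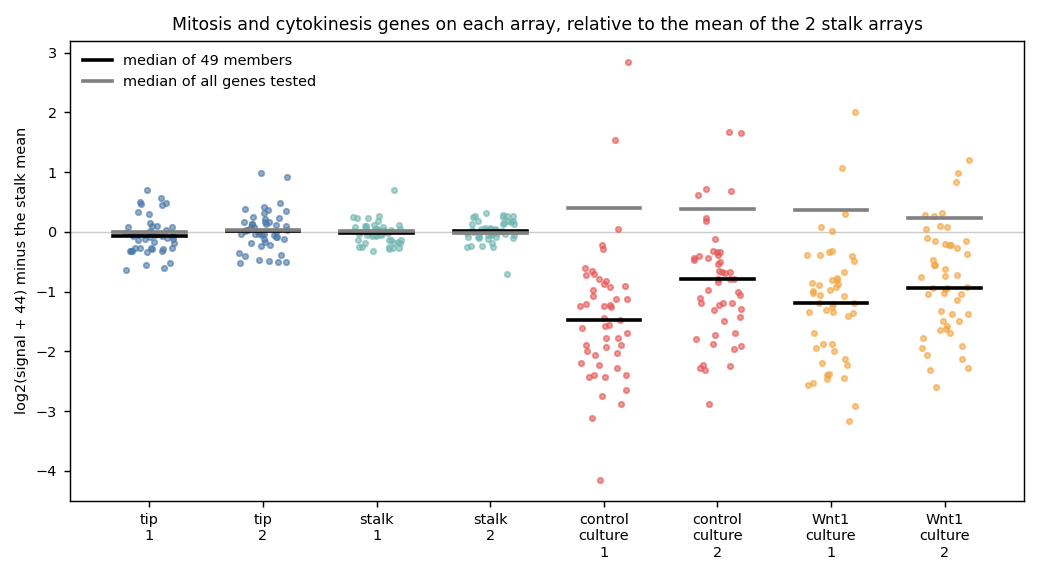
Each point is 1 of the 49 members on 1 array, as log2(signal + 44) minus the mean of the 2 stalk arrays (vertical axis), with a black line at the median member and a grey line at the median of all 16112 genes tested. The black lines lie between -0.07 and 0.01 on the uncultured arrays and between -1.48 and -0.79 in culture, where the grey lines lie between 0.23 and 0.40.

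Among the cyclins and kinases that start mitosis, 6 of 7 measured members fell, with a median of -1.68. Ccnb2, the second B-type cyclin, had signals of 3593 and 3084 in stalk and 599 and 1213 in control culture. The culture arrays were far below stalk though apart from each other, and the mean was 3.75-fold lower (-1.91 ± 0.37, adjusted p = 0.0081). Nek2, a kinase that splits the centrosomes, went from 950 and 1514 to 26.3 and 462, the largest fall of the set (-2.72 ± 0.72, adjusted p = 0.021). Its lower culture value lies under the highest array median, so the size of the fall is uncertain, as it is for Plk1, Cenpe, Ncapd2, Kif20a and Kif20b, which also had a control culture signal under it. The brightest Nek2 probe set without a cross-matching suffix was at 0.20 ± 0.45. Plk1 went from 1598 and 2322 to 270 and 899 (-1.86 ± 0.50, adjusted p = 0.022), with no overlap. Cdk1 went from 5461 and 5692 to 2400 and 2582, replicates close in both groups (-1.15 ± 0.37, adjusted p = 0.039). The Aurora kinase Aurka and the A-type cyclin Ccna2 fell too (-1.68 ± 0.53 and -1.01 ± 0.32). Melk, an embryonic mitotic kinase, was at -1.13 ± 0.42 and missed the threshold (adjusted p = 0.063).

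Of the 4 spindle checkpoint genes 2 fell, and the median was -1.59. Mad2l1, the Mad2 protein that blocks Cdc20 until chromosomes are attached, had 3475 and 4233 in stalk and 760 and 773 in control culture. The 2 culture arrays were nearly equal, and the mean was 4.78-fold lower (-2.26 ± 0.31, adjusted p = 0.0028). Bub1, the checkpoint kinase of the kinetochore, had 3853 and 4014 against 809 and 1034 (-2.05 ± 0.34, adjusted p = 0.0052), again well apart. Bub1b, the related BubR1, split between its culture arrays, at 1398 and 4300 against 6486 and 4509 in stalk (-1.12 ± 0.46, adjusted p = 0.085), and Ttk, the Mps1 kinase, was at -0.84 ± 0.40.

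Kinetochore genes were uneven. Cenpe, the kinesin that carries chromosomes to the spindle equator, fell from 2200 and 1567 to 412 and 215 (-2.47 ± 0.41, adjusted p = 0.0052), which is 5.53-fold. Cenpf fell from 2522 and 2422 to 691 and 1065 (-1.48 ± 0.35, adjusted p = 0.016). The other 5 of the 7 did not pass. The 4 subunits of the Ndc80 complex, which have to be present together to hold a microtubule, were at -0.57 ± 0.34 (Ndc80), -0.16 ± 0.37 (Nuf2), -0.56 ± 0.38 (Spc24) and -0.56 ± 0.42 (Spc25). Cenpa, the histone that marks the centromere, was at -0.74 ± 0.43. The median of the group was -0.57, and 6 of the 7 had culture arrays wholly below stalk.

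The chromosomal passenger complex corrects wrong attachments and later moves to the midzone. Its kinase Aurkb fell from 2336 and 3370 to 483 and 565, or 5.03-fold (-2.33 ± 0.34, adjusted p = 0.0042). The culture arrays agreed closely and neither came near stalk. Its second probe set gave -1.83 ± 0.33 (adjusted p = 0.0077 in a fit of every probe set), and both carry suffixes of probes that can match other transcripts. The partners of Aurkb did not pass. Birc5 went from 2210 and 3293 to 1219 and 1543 (-0.95 ± 0.34, adjusted p = 0.054), apart but short of the threshold. Cdca8 (borealin) was at -0.37 ± 0.50, and Incenp, the scaffold, at 0.03 ± 0.46, with control culture arrays at 8290 and 21522 on either side of stalk at 13981 and 12284. Another probe set of Incenp gave -1.11 ± 0.37 (adjusted p = 0.049).

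Of the 9 spindle motors and assembly factors 2 fell and 2 passed as higher, with a median of -0.98. Neither of the 2 higher calls can be read as a rise of the gene, for the reasons given with each. Tpx2, which activates Aurka on the spindle, fell from 2264 and 2244 to 535 and 966 (-1.59 ± 0.37, adjusted p = 0.015), but was at 0.09 with its probe sets averaged. Nusap1, a microtubule bundling protein, fell by 1.49 on the log2 scale (adjusted p = 0.029). Kif22, a chromosome arm kinesin, rose on the probe set used for it, from 4985 and 5104 to 14816 and 16112 (1.61 ± 0.36, adjusted p = 0.013). That probe set has the suffix _x_at, given to probes that can match other transcripts, and the gene's other probe sets disagree (below). Kif15, a spindle kinesin, had the largest difference upward, from 11.3 and 22.5 to 393 and 147 (2.25 ± 0.65, adjusted p = 0.028). It passed the filter only through culture arrays and so had to differ, and of its 8 signals only the one of 393 exceeded the highest array median. The depolymerase Kif2c was at -1.14 ± 0.40 and the bipolar spindle motor Kif11 at -0.31 ± 0.35.

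In the group of anaphase and protein destruction 2 of 5 fell. Ube2c, the enzyme that loads ubiquitin for the anaphase promoting complex, went from 4572 and 4082 to 1825 and 1516 (-1.35 ± 0.33, adjusted p = 0.016), with both groups tight. Cdca3, an adaptor for destruction of the mitotic entry inhibitor Wee1, went from 2538 and 3227 to 1500 and 1399 (-0.96 ± 0.32, adjusted p = 0.045). This call was kept in 10 of 21 alternatives, and with its probe sets averaged the difference was 0.59. Espl1, the separase that cuts cohesin, was at -1.05 ± 0.37 (adjusted p = 0.052). Cdc20 was at 18295 and 13159 in stalk and 10178 and 23907 in control culture, a full overlap (0.01 ± 0.52). On its probe set without a cross-matching suffix it went from 5251 and 4373 to 1696 and 2704, at -1.15 (adjusted p = 0.034 when such probe sets alone were used). Pttg1, the securin that holds separase, was at 0.37 ± 0.41, also on a probe set of the cross-matching kind. Its other probe sets were at -0.71 ± 0.36 and -0.60 ± 0.50, neither past the threshold.

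Genes of chromosome structure fell in 4 of 6 cases, with the lowest median of the 8 roles, -1.76. Condensin, the ring that compacts chromosomes, had both of its Smc subunits lower. Smc2 went from 3182 and 2977 to 419 and 902 (-2.24 ± 0.41, adjusted p = 0.007), and Smc4 from 8116 and 7257 to 2494 and 2195 (-1.70 ± 0.32, adjusted p = 0.008). In neither did a culture array reach the stalk range. Its subunit Ncapd2 fell by 2.28 on the log2 scale (adjusted p = 0.011), while Ncapg was at -0.97 ± 0.36 (adjusted p = 0.062). A second Ncapg probe set gave -1.91 ± 0.79, also short of the threshold, with stalk arrays far apart at 2526 and 462. Top2a went from 11801 and 9185 to 1894 and 4452 (-1.82 ± 0.42, adjusted p = 0.014). Mki67 had 6997 and 6793 in stalk but 1481 and 4944 in control culture, lower on both arrays yet spread between them (-1.33 ± 0.47, adjusted p = 0.053).

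Cytokinesis genes fell in 3 of 7 cases, with a median of -1.35. Kif20a, the midzone kinesin that brings Plk1 and Aurkb to the cleavage site, went from 1967 and 2564 to 220 and 420. This was 6.55-fold and had the smallest adjusted p of the set (-2.71 ± 0.36, adjusted p = 0.0025). Anln, the anillin of the contractile ring, went from 2927 and 4186 to 910 and 684 (-2.09 ± 0.34, adjusted p = 0.0052). Neither gene overlapped between the groups. Kif20b fell by 1.93 on the log2 scale (adjusted p = 0.016), though its stalk arrays were far apart and the difference was 0.07 with its probe sets averaged. The 4 members that missed the threshold included both parts of centralspindlin, Kif23 at -0.99 ± 0.36 and Racgap1 at -0.85 ± 0.34. A second Racgap1 probe set did pass, at -2.42 ± 0.54 (adjusted p = 0.016 in a fit of every probe set), so the miss of Racgap1 depends on the probe set. Also short of the threshold were the midzone bundler Prc1 at -1.12 ± 0.39 and Ect2, which switches on the ring's GTPase, at -1.35 ± 0.54. Kif20a, Mad2l1 and Aurkb kept their calls under every alternative in which they were measured except the one without stalk replicate 2, the setting in which no member passed.

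**Figure D4:**
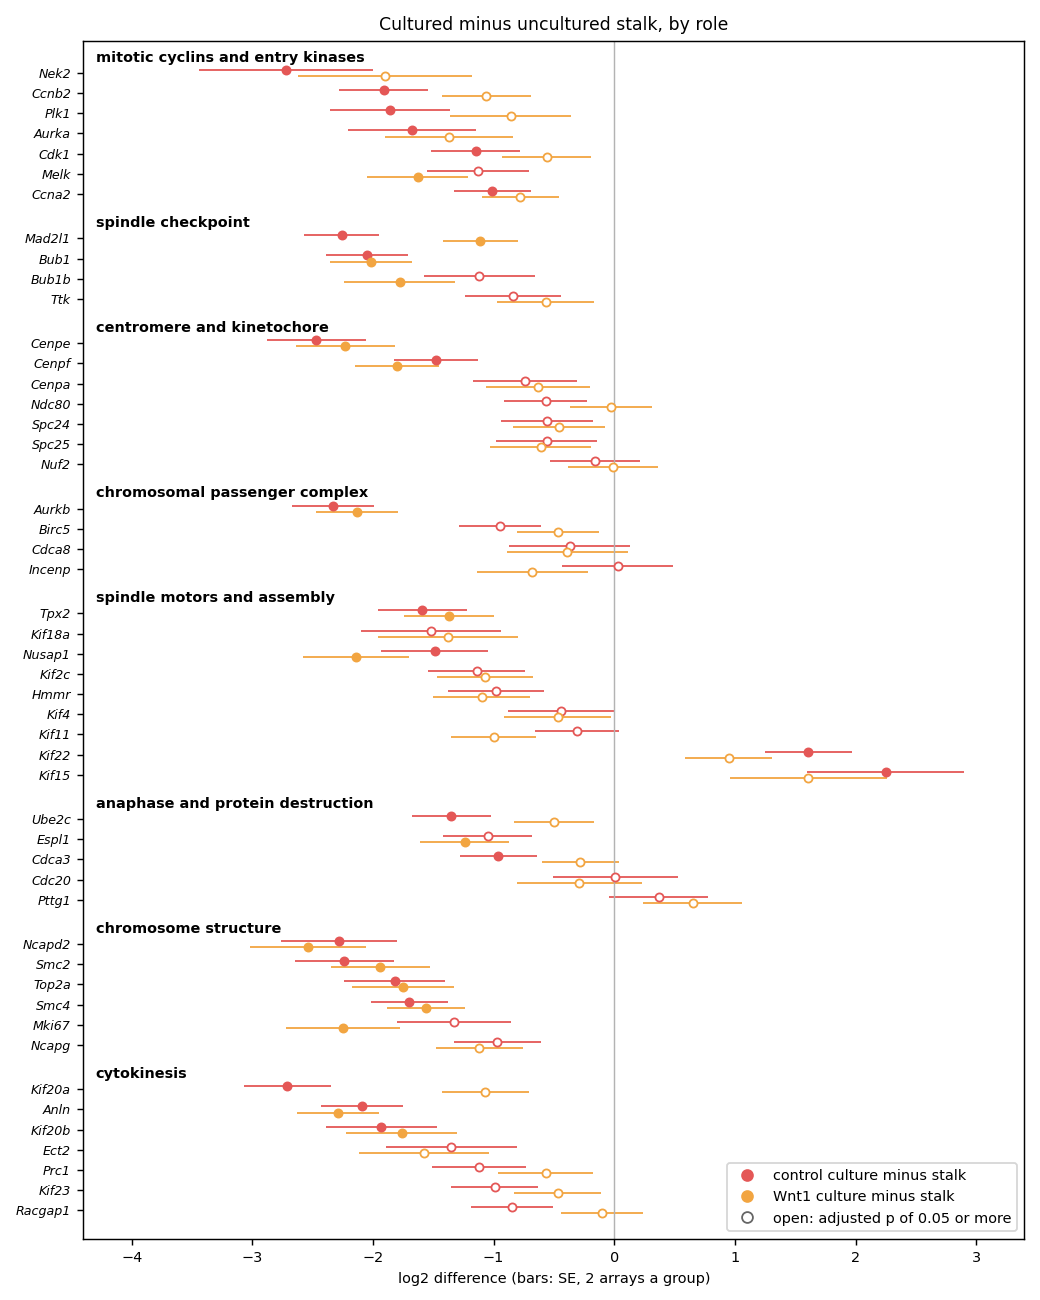
Log2 difference from uncultured stalk (horizontal axis) of each member in control culture (red) and Wnt1 culture (orange), grouped by role, with bars of 1 SE and open circles where the adjusted p was 0.05 or more. In control culture 44 of 49 points lie left of 0 and with Wnt1 46 do. Those of Kif22, Kif15 and Pttg1 lie right of it in both media.

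With Wnt1 in the medium the mitotic genes were also below uncultured stalk. Of 49 members 17 fell and 0 rose (background 6.75% lower and 9.15% higher). The difference was below 0 in 46 and the median was -1.07, against 0.33 for all genes. With the stricter filter the all-gene median was -0.08, with 1253 of 11265 genes lower and 1393 higher. Of 48 members 19 then fell and 0 rose, with a median of -1.07. Both Wnt1 arrays lay below both stalk arrays in 36 members (background 25.4%) and above in 3 (background 41.2%). This comparison uses the same stalk arrays as the one before, so the values stand side by side and are not independent. Its calls too were mostly lost, over all genes as well, with 1 stalk array left. The median was -1.07 without stalk replicate 1, -0.97 without stalk replicate 2 and -0.93 without Wnt1 replicate 1. Leaving out a control culture array only changes the shared spread, and the median stayed at -1.07.

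The largest falls were those of Ncapd2, from 1896 and 2440 to 200 and 539 (-2.54 ± 0.48, adjusted p = 0.0092), and Anln, from 2927 and 4186 to 574 and 811 (-2.29 ± 0.34, adjusted p = 0.0037). Both were wholly below stalk. The lower Wnt1 signal of Ncapd2 lies under the highest array median, so the size of its fall is uncertain. Mki67 went from 6997 and 6793 to 1127 and 1770, 4.76-fold (-2.25 ± 0.47, adjusted p = 0.013), and both Wnt1 arrays were low. Top2a (-1.75 ± 0.42, adjusted p = 0.02) and Aurkb (-2.13 ± 0.34, adjusted p = 0.0048) fell as well. Not past the threshold were Cdk1 (-0.56 ± 0.37), Plk1 (-0.86 ± 0.50), Birc5 (-0.47 ± 0.34) and Cdc20 (-0.29 ± 0.52). The largest differences upward were those of Kif15 (1.61 ± 0.65, adjusted p = 0.095) and Kif22 (0.95 ± 0.36, adjusted p = 0.08).

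By role, the counts that fell with Wnt1 were 5 of 6 for chromosome structure (median -1.84), 3 of 4 for the checkpoint (median -1.44), 2 of 7 for kinetochores, 2 of 9 for spindle motors, 2 of 7 for cytokinesis and 1 of 4 for the passenger complex. Among entry kinases 1 of 7 fell (Melk, median -1.06) and in the anaphase group 1 of 5 (Espl1, median -0.29). In 13 genes the threshold was passed in both media, which is 59.1% of those that fell in control medium and 76.5% of those that fell with Wnt1, and since stalk is shared this is a count only. They are Anln, Aurkb, Bub1, Cenpe, Cenpf, Kif20b, Mad2l1, Ncapd2, Nusap1, Smc2, Smc4, Top2a and Tpx2. Passing in 1 medium and missing in the other does not show a difference between the media, which was tested directly.

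Wnt1 culture against control culture is that test, and it asks what Wnt1 adds to stalk in culture. No member passed (limma, adjusted p under 0.05), and no gene of the 16112 did (background 0.0% in each direction). At an unadjusted p under 0.05 there were 5 members, all higher with Wnt1, and 1311 genes in all. The median difference (Wnt1 minus control) was 0.14, against -0.08 for all genes, with 30 members above 0 and 19 below. Signals did not overlap, higher with Wnt1, in 9 members (background 10.2%) and, lower, in 2 (background 16.0%). The smallest adjusted p was 0.54. A p that misses the threshold does not show that Wnt1 left these genes alone, and the largest standard error of a member was 0.72 with 2 arrays a group.

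Kif20a had the largest difference, with 962 and 1147 in Wnt1 culture and 220 and 420 in control culture (1.65 ± 0.36, adjusted p = 0.54). Both Wnt1 arrays were above both control arrays and below stalk at 1967 and 2564. Without control replicate 2, which leaves 1 control culture array, the Kif20a difference was 2.05. Mad2l1 came next, with 1807 and 1710 against 760 and 773 (1.15 ± 0.31, adjusted p = 0.54). Its replicates were close in both media, and Wnt1 culture again lay between control culture and stalk. The other 3 members at an unadjusted p under 0.05 were Ube2c (0.86 ± 0.33), Ccnb2 (0.85 ± 0.37) and the centralspindlin subunit Racgap1 (0.75 ± 0.34). On a second Racgap1 probe set the difference was 0.17 ± 0.54 and the media overlapped.

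Downward the largest differences were those of Mki67, with 1127 and 1770 against 1481 and 4944 (-0.92 ± 0.47), and Incenp, with 7049 and 9400 against 8290 and 21522 (-0.71 ± 0.46). In each the media overlapped, and control replicate 2 stood above the other 3 culture arrays. The remaining genes given throughout were Plk1 at 1.0 ± 0.50, Cdk1 at 0.59 ± 0.37, Birc5 at 0.48 ± 0.34, Aurkb at 0.20 ± 0.34, Top2a at 0.08 ± 0.42 and Cdc20 at -0.29 ± 0.52. By role, the median was 0.59 for entry kinases, with 6 of 7 above 0, and 0.52 for cytokinesis, with 5 of 7 above 0. It was -0.03 for chromosome structure and -0.12 for spindle motors, and 0 members passed in each role.

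The sign of the median hung on which arrays were set against each other. Wnt1 replicate 1 minus control replicate 1 had a member median of 0.26, and replicate 2 minus replicate 2 of 0.02. Crossed, Wnt1 replicate 2 minus control replicate 1 gave 0.66 and Wnt1 replicate 1 minus control replicate 2 gave -0.38. For control culture minus stalk the 4 such pairs ran from -1.48 to -0.77, and for Wnt1 culture minus stalk from -1.11 to -0.77. Every pair was thus below 0 against stalk, and the pairs between the media lay on both sides of 0.

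The probe sets of a gene did not always move together. Of the 49 genes 17 had 1 tested probe set and 32 had several, up to 5, and in 24 of these the probe sets had opposite signs in control culture minus stalk. These were Anln, Aurka, Bub1, Bub1b, Cdc20, Cdca3, Cenpa, Cenpf, Hmmr, Incenp, Kif11, Kif20b, Kif22, Kif23, Kif2c, Ncapd2, Nek2, Nusap1, Pttg1, Smc2, Spc25, Top2a, Tpx2 and Ttk. The split went with brightness. Of 79 probe sets whose mean over the 8 arrays was above the highest array median, 66 were below 0, 30 fell and 1 rose, with a median of -1.11 (all probe sets as features, background 7.38% lower and 13.1% higher). Of the 26 at or under it, 3 were below 0 and 23 above, 0 fell and 3 rose, with a median of 0.97. Some of these dim probe sets, such as those of Aurka, Cenpa and Kif15, passed the filter only through culture arrays. The filter thus favoured a rise in them, and their sign cannot be read as a change. The opposite signs of Aurka and Cenpa rest on such probe sets. In Wnt1 culture minus stalk 69 of the 79 bright probe sets were below 0 and 24 fell, and 17 of the 26 dim ones were above 0 with 0 called (background 4.97% lower and 5.48% higher).

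Kif22 shows the split among bright probe sets. Its _x_at probe set rose as given above, while an _s_at probe set went from 2122 and 1867 in stalk to 644 and 1002 in control culture (-1.26 ± 0.34, adjusted p = 0.027 with every probe set tested). Another, at 788 and 646 in stalk and 1389 and 620 in culture, was at 0.36 ± 0.44. No direction can therefore be given for Kif22. In Tpx2 the 2 bright probe sets were at -1.59 and -1.07 and the 2 dim ones at 1.72 and 1.30, and in Top2a the bright one was at -1.82 and a weaker one, at 276 to 805 over the arrays, was at 0.58.

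**Figure D5:**
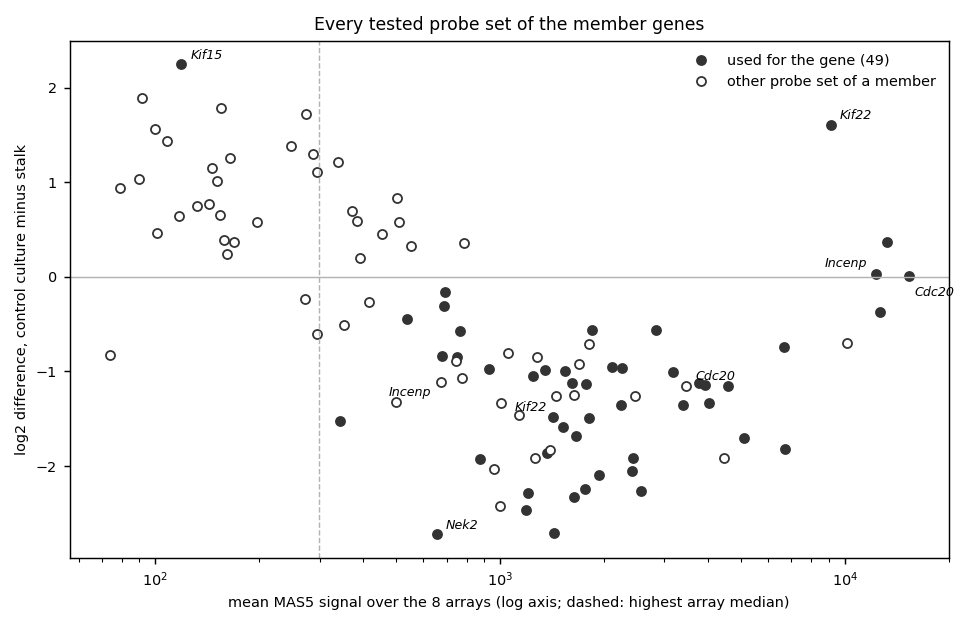
Log2 difference of control culture minus stalk (vertical axis) against the mean MAS5 signal over the 8 arrays (horizontal axis, log scale) for the 105 tested probe sets of the members, filled where the probe set stands for its gene, with a dashed line at the highest array median. Right of the line 66 of 79 points lie below 0, and left of it 23 of 26 lie above. Some of the points left of it passed the filter only through culture arrays, which favours values above 0.

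The culture arrays also differed from the others in technical measures. Their median signal was 149 to 299, and it was 76.5 to 99.8 on the uncultured arrays, although their trimmed means were equal. The signal ratio between the 3' and 5' probe sets of Actb, which rises when RNA is degraded or copied short, was 6.81 to 24.4 in culture and 2.02 to 4.52 without. That of Gapdh was 9.73 to 17.8 and 3.10 to 5.87. With every array centred on its own median the all-gene median of control culture minus stalk moved from 0.43 to -0.75. The split of all genes tested then went from 2712 higher and 1467 lower to 318 and 4092, and 39 members fell and 0 rose, with a median of -2.32. For Wnt1 culture minus stalk the split went from 1475 and 1087 to 230 and 2827, the all-gene median from 0.33 to -0.65, and 26 members fell. Under quantile normalization 12 members fell and 1 rose in control culture, with a median of -0.91, where 666 of all genes fell and 542 rose. With Wnt1 6 members fell under it, where 350 of all genes fell and 307 rose. The part of RNA quality in these results was not tested.

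Cell type markers were set beside the same shares of all genes in control culture, 16.8% higher and 9.11% lower. Of 6 smooth muscle genes, 5 rose in control culture and their summed signal went from 4451 to 5643 in stalk to 110238 to 125277 in control medium and 149311 to 178691 with Wnt1. Of 8 macrophage genes 4 rose (sums of 3952 to 4513, 12340 to 22056 and 11568 to 11884). Of 7 endothelial genes 4 fell (6066 to 7973, 1432 to 1841 and 850 to 1793) and of 5 red cell genes 4 fell (38520 to 66855, 6146 to 14207 and 9071 to 21475). Of 9 epithelial genes 2 rose (4388 to 5255, 8066 to 9415 and 7436 to 21019) and of 6 mesothelial genes 1 rose (3292 to 3415, 4705 to 5728 and 4929 to 5361), counts near the share of all genes. All 9 epithelial differences from stalk were above 0 in control culture, with a median of 1.3 beside 0.43 for all genes. Only 3 of the 9 exceeded the highest array median on both stalk arrays. The sums lean on bright genes, such as Id2 (mean of 3184 in stalk) and Acta2 (mean of 95427 in control culture). Lung mesenchyme genes fell in 7 of 11 cases and rose in 1, with sums of 60282 to 66189 in stalk, 38002 to 61432 in control medium and 28691 to 45266 with Wnt1. No listed marker that was measured had a signal of 0, and the part of these cells in the mitotic signals was not tested.

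Other cell cycle genes were compared with the 9.11% of all genes that fell and the 16.8% that rose in control culture. Cohesin, the ring that holds sister chromatids, and its partners fell in 5 of 13 cases in control culture (median -1.05), led by Smc1a (-1.76 ± 0.33, adjusted p = 0.0073) and its release factor Wapl (-1.97 ± 0.37, adjusted p = 0.0078). Further condensin and kinetochore genes fell in 8 of 24 (median -0.78), with the centromere protein Cenpi at -3.20 ± 0.61 (adjusted p = 0.008) and Nsl1, of the Mis12 complex, at -2.45 ± 0.49 (adjusted p = 0.009), both with culture signals under the highest array median and so of uncertain size. DNA replication genes fell in 5 of 26 (median -0.85), among them the polymerase subunit Pole (-2.34 ± 0.42, adjusted p = 0.0064) and Mcm10 (-1.83 ± 0.33, adjusted p = 0.007). The anaphase promoting complex was mixed, with 5 of 15 lower, such as Anapc1 (-1.55 ± 0.39) and Cdc23 (-1.69 ± 0.45), and 2 higher (median -0.68). Of 18 mitotic regulators 2 fell, the repressors E2f7 (-2.80 ± 0.83) and E2f8 (-1.11 ± 0.38), a count near the share of all genes. The regulators were split in direction, with 11 below 0 and 7 above and a median of -0.61. E2f7 and Pole each had 1 control culture array under the highest array median, so their sizes are uncertain too.

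In the list of cell cycle inhibitors 2 of 14 rose and 1 fell, near the shares of all genes (16.8% and 9.11%), and the median was 0.86 beside 0.43 for all genes. Cdkn1a, the p21 inhibitor of cyclin-dependent kinases, had a signal of 268 ± 45.5 in stalk and 3438 ± 2731 in control culture (SD, n = 2), a log2 difference of 3.22 ± 0.72 (adjusted p = 0.013). Its stalk mean lies under the highest array median, so the size is uncertain. Cdkn2b, the p15 inhibitor, went from 26.7 ± 28.8 to 426 ± 79.4 (2.78 ± 0.55, adjusted p = 0.0088), with the same limit. Ccng2, a cyclin found in resting cells, fell (-1.21 ± 0.36, adjusted p = 0.031). In Wnt1 culture minus stalk Cdkn1a was at 4.04 ± 0.72 (adjusted p = 0.0079) and Cdkn2b at 3.63 ± 0.55 (adjusted p = 0.0039), and the counts that fell were 5 of 13 for cohesin, 9 of 24 for condensin and kinetochore genes, 7 of 26 for replication, 4 of 15 for the anaphase promoting complex and 1 of 18 for regulators, where 6.75% of all genes fell. Between tip and stalk, and between the 2 media, 0 genes passed in each of these 6 lists. Their medians there lay between -0.16 and 0.09, and between -0.13 and 0.07.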

How the data were processed

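Deposited intensity values, 1 per probe set and array on a linear scale, were made by the authors with MAS5 in Affymetrix Expression Console, per the submitters' processing notes. Neither version nor settings are given in the sources used here. Their trimmed mean is the same on every array, so dim signals rise on arrays with little bright signal. Detection calls were not used, and the highest array median, 299, served as a floor for comparison. Of 45101 probe sets, 34945 had 1 gene symbol in the platform annotation (932 several, 9160 none, 64 controls). Those above 96.6 on at least 2 arrays were kept, leaving 16112 genes. The probe set with the highest mean of log2(signal + 44) stood for each gene, which is not always the one with the highest mean signal. Values were fitted as log2(signal + 44) with limma 3.58.1 in R 4.3.3 (lmFit, eBayes with an intensity trend), all 8 arrays together, two-sided, Benjamini-Hochberg over all genes, threshold 0.05. Differences on that scale understate the change of dim genes. The fit was tested on simulated data. Arrays limit precision by their number, 2 a group. Groups came from sample titles. Alternatives changed the pseudocount, filter, normalization, variance model, arrays, probe sets, floor, weights and replicate block. Motifs were searched in RefSeq promoter windows (GRCm38.p6), and 7 members had none. Members, role groups and lists were chosen with earlier results of these data known. Named genes are Mki67, Top2a, Cdk1, Plk1, Aurkb, Cdc20 and Birc5 throughout, the 2 members of each role with the smallest p in control culture minus stalk on every array, the 2 largest differences in each direction, and members whose probe sets disagree. From each list up to 2 genes past the threshold were named by p, and any other gene was added after its values were seen.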

Additional observations from a re-analysis of the deposited data

How the results depend on the processing

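Over the 22 alternatives no member passed between tip and stalk, and between Wnt1 and control culture the count ran from 0 to 1 when arrays were left out. For control culture minus stalk, where 24 members passed, the count was 13 with quantile normalization, 39 with arrays centred on their median and 9 with the signal floor. Over all 16112 genes the counts higher and lower were then 542 and 666, 318 and 4092, and 279 and 389. When arrays were left out, the member median of this comparison ran from -1.48 to -0.79. For Wnt1 culture minus stalk, where 17 passed, the count was 6, 26 and 5 under the same settings and 10 with probe sets averaged by gene. All genes higher and lower were then 307 and 350, 230 and 2827, 79 and 218, and 1378 and 634. Its member median ran from -1.19 to -0.93 when arrays were left out. The member median moved to -0.12 (centred) and 0.03 (mean of probe sets) for tip minus stalk, to -2.32 and -0.64 for control culture minus stalk, and to -2.05 and -0.50 for Wnt1 culture minus stalk, which was -0.78 with quantile normalization and -0.63 over every probe set. The cause was not tested, beyond the fewer samples where an array was left out.

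No label says that replicate numbers pair samples across groups, and they were not taken to. Deviations from the group means correlated at -0.086 between tip and stalk, 0.14 between stalk and either culture group and 0.30 between the cultures. With the replicate block 35 members passed in control culture minus stalk, where 3479 of 16112 genes were higher and 1873 lower. In Wnt1 culture minus stalk 24 members passed, where 2354 genes were higher and 1550 lower. In the other comparisons 0 members did.

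Among named genes, Cdc20 in control culture minus stalk was at -0.23 (quantile), -1.18 (centred), -0.65 (mean of probe sets), -1.15 (no cross-matching suffixes) and -0.61 to 0.62 when arrays were left out, and in Wnt1 minus control culture at 0.20, 0.32 (mean, no suffixes) and -0.91 to 0.32. Top2a in Wnt1 minus control culture was at -0.01 (quantile), -0.10 (mean) and -0.53 to 0.68. With the mean of probe sets Tpx2 was at 0.09, Cdca3 at 0.59 and Kif20b at 0.07 in control culture minus stalk, Top2a at 0.01 in tip minus stalk, and without suffixes Nek2 was at 0.20. Leaving out arrays gave, for tip minus stalk, -0.04 to 0.38 for Cdk1, -0.35 to 0.18 for Plk1, -0.38 to 0.14 for Aurkb, -0.48 to 0.08 for Birc5, -0.33 to 0.16 for Cdc20 and -0.27 to 0.17 for Top2a, and for Wnt1 culture minus stalk -0.85 to 0.28 for Cdc20.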
